A study of Mus musculus with 15 samples.

Results

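Transcription factors that keep naive T cells at rest were followed in 15 mouse arrays covering resting T cells, activated T cells and T cell lymphomas. The set holds 9 factors listed by name: Lef1, Tcf7, Klf2, Klf3, Foxo1, Foxp1, Bach2, Satb1 and Ets1. Members were found as the probe sets annotated with those symbols, and where a gene had several, the brightest on average over the 15 arrays stood for it. Of the 9 factors, 8 had such a probe set, out of 18193 genes in the series, and all 8 were among the 11902 genes tested. Tcf7 had no probe set under its symbol in the annotation used and is not analysed here.

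The series holds 3 arrays of resting T cells, 3 of T cells activated in vitro and 9 of mouse peripheral T cell lymphomas, labelled mPTCL 1 to 9. The normal cells came from 5-week-old p53 KO mice on the C57BL/6 background. The lymphomas arose from p53 KO T cells transferred into syngeneic C57BL/6 hosts that were CD3 KO, so all 15 samples lack p53, a tumour suppressor. Lymphoma cells were sorted from liver, and normal cells were sorted from liver or spleen, with the organ not stated per sample. A protocol of the normal samples describes fortnightly injections of saline or heat-killed Streptococcus pneumoniae, but whether these donors received them is not stated. No label ties a replicate to an animal of its own. The p-values therefore measure only how far these samples scatter, part of which may be technical.

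Naive T cells circulate between blood and lymph nodes in a non-dividing state that is actively maintained. Foxo1 and Klf2 are known to drive the receptors for lymph node entry, lymph node exit and survival signals, and antigen receptor signalling through PI3K and AKT moves Foxo1 out of the nucleus. Lef1 and Tcf7 bind DNA through an HMG box and mark naive and memory cells. Bach2 and Foxp1 are repressors that hold back effector differentiation, Satb1 organises chromatin loops in T lineage cells, and Ets1 is a lymphoid activator that Il7r is known to depend on.

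Signals are MAS5 intensities, set to a floor of 32 and expressed as log2, so that the floor is 5 and a difference of 1 is a 2-fold change. The signal of a probe set depends on its probes, so levels are compared between arrays and not between genes. The median signal of an array averaged 115 ± 3.98 (SD) over the 3 activated, 94.5 ± 4.06 over the 3 resting and 89.1 ± 15.5 over the 9 lymphoma arrays. The 3′ to 5′ ratio of the actin control averaged 1.52 ± 0.03, 1.35 ± 0.13 and 1.93 ± 0.40 in that order. That of Gapdh ran differently, at 1.31 ± 0.05, 2.02 ± 0.18 and 1.85 ± 0.30, and the part of either in the results below was not tested. The labels give a software version for the lymphomas and an amplification kit for the normal cells alone, so such handling and the lymphoma group cannot be told apart. Over 8 measured T cell markers the mean lay between 13.06 and 13.27 in resting cells, between 12.89 and 12.93 in activated cells and between 8.79 and 11.74 in lymphomas. Cd3g, a chain of the T cell receptor complex, was present in every lymphoma, at 10.14 to 13.99, whereas Cd3e lay at the floor in mPTCL 4. The part of the lower T cell markers in the results below was not tested. In bulk samples, fewer T cells and less RNA per T cell cannot be told apart.

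The stretches of DNA before the start sites of Lef1, Klf2 and Klf3 are shown because among the factors called lower against resting cells Lef1 and Klf3 fell furthest, and Klf2 is the other member of the Krüppel-like family whose motif was searched. Each is the 250 bases before the outermost start in RefSeq on build GRCm38.p6, at chr3:131110047-131110296 for Lef1, chr8:72318812-72319061 for Klf2 and chr5:64803271-64803520 for Klf3, all on the + strand. Capitals mark the letters CACCC, the core of the site that Krüppel-like factors bind, or GGGTG, the same core on the other strand.
Lef1: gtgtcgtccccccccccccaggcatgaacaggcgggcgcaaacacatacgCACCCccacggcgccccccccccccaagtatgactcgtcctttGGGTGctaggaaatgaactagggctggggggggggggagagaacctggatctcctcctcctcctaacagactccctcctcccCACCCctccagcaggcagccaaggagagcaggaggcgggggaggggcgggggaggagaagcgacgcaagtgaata
Klf2: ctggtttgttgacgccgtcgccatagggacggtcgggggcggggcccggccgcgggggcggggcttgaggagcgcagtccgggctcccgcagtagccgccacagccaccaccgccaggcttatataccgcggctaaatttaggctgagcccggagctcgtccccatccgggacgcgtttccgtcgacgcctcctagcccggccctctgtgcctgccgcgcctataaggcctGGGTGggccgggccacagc
Klf3: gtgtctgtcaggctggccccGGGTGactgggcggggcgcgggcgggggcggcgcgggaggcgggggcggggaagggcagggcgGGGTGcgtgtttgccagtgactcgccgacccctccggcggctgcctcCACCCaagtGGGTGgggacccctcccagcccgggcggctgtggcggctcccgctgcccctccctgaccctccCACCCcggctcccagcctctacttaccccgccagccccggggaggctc
The core occurred 3 times before Lef1, 1 time before Klf2 and 5 times before Klf3. It also occurred in the windows of 4 of the 5 members with an entry at an outermost start, the fourth being Satb1, with 2 matches, while Foxo1 had 0. Of all 32851 windows of the same length, 52.0% held it, so its presence is common. The windows were rich in G and C, at 66.4% for Lef1, 71.2% for Klf2 and 78.4% for Klf3, against a median of 52.4% over all windows. None of the 5 windows held GTAAACA (forkhead, 3.2% of all windows), CTTTGA (LEF and TCF, 13.8%), CCGGAA (ETS, 12.0%) or TGACTCA (BACH and AP-1, 4.5%) on either strand. No match says only that these letters are not in these 250 bases. The entries for Foxp1 and Bach2 lie inside the gene and were not counted.

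In the comparison of activated with resting cells, the factors divided in direction and none changed by 2-fold. Klf2 and Klf3 were lower, Bach2 and Satb1 were higher, and Lef1 and Foxo1 differed by -0.22 and -0.12 on the log2 scale. Here 0 of 8 factors passed the call rule, an adjusted p under 0.05 in limma with a change of at least 2-fold, against 12.7% of all genes tested (8.45% higher and 4.23% lower). At the adjusted p alone, 4 of 8 passed, against 30.9% of all genes. Every activated array lay below every resting array for 2 factors and above for 3, where 23.3% of all genes lay below and a further 23.3% above. Separation was that common among all genes, so these counts are not read as particular to the factors. Markers of other cells moved in the same comparison. Of 10 tested macrophage and Kupffer cell markers 7 were called lower, with the list mean at 7.03 to 7.66 in resting and 5.60 to 5.69 in activated arrays. Of 9 tested endothelial and stromal markers 5 were called higher, with list means of 6.25 to 6.38 and 7.25 to 7.72. The 5 were the stromal genes Dcn, Col1a2, Col3a1, Sparc and Bgn. The endothelial genes Pecam1, Kdr, Stab2 and Lyve1 were not called, at 0.20, 0.73, -0.35 and -0.20. Their part in the differences of the factors was not tested.

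In the lymphomas the factors were lower throughout. The median difference of the 8 factors was -2.49 against resting cells and -2.01 against activated cells, while the median over all genes tested was -0.02 and -0.08. The 8 tested T cell markers had medians of -2.61 and -2.32, with 4 called lower in each comparison, so a fall of this size was not particular to the factors. Against resting cells 5 of 8 were called lower and 0 higher, against 6.84% and 7.03% of all genes. Against activated cells 6 of 8 were called lower and 0 higher, against 8.28% and 7.04%. All 9 lymphomas lay below all 3 resting arrays for 7 of 8 factors, where 11.0% of all genes did so, and below all 3 activated arrays for 6 of 8, where 12.4% did. Both lymphoma comparisons use the same 9 lymphoma arrays, so they are not independent of each other. The count against resting cells depends on the few normal arrays: it was 2 without resting array 1, 1 without resting array 2 and 2 without resting array 3. Among all 11902 genes tested, those called lower also went down in these fits, from 814 to 354, 320 and 356. Against activated cells the count of factors was 3 without any 1 of the activated arrays. There the genes called lower went from 986 to 437, 465 and 452 without activated arrays 1, 2 and 3.

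**Figure D1:**
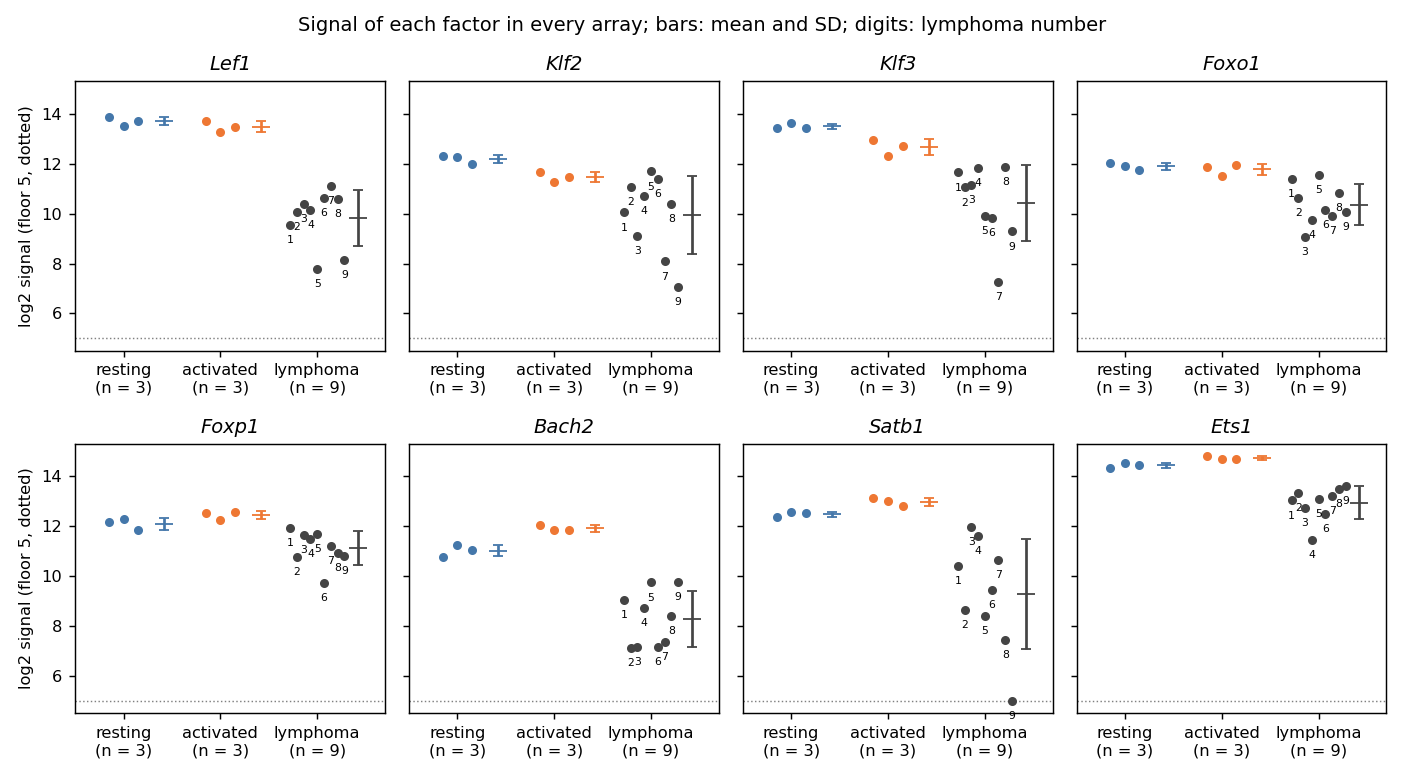
Log2 signal (vertical axis, floor of 5 dotted) of the 8 measured factors in each array, with 3 resting, 3 activated and 9 lymphoma arrays, digits giving the lymphoma number and bars the mean and SD of each group. The 9 lymphomas lie below the 3 resting arrays in every panel except Foxp1, and for Satb1 they spread from 11.98 down to the floor.

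Lef1, the HMG box factor, showed the largest fall against resting cells. Its signal was 13.85, 13.52 and 13.73 in the resting arrays and 13.71, 13.26 and 13.46 in the activated arrays. Among lymphomas it was lowest in mPTCL 5 at 7.80, had a median of 10.13 and was highest in mPTCL 7 at 11.11. The 2 normal groups overlapped, and all 9 lymphomas lay more than 2 log2 units below the lowest normal array. Activated minus resting was -0.22 ± 0.15 (SE, adjusted p = 0.303). Lef1 fell by 3.87 ± 0.61 against resting cells, a 14.6-fold change (adjusted p = 0.00112), with a 95% interval of -5.18 to -2.57. Against activated cells the difference was -3.65 ± 0.61 (12.6-fold, adjusted p = 0.00195). Both calls were made under all 28 alternative settings run for each comparison.

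Klf2, a Krüppel-like zinc finger factor of quiescence and migration, was 12.31, 12.26 and 11.98 in resting cells and 11.66, 11.28 and 11.48 in activated cells. The normal groups did not overlap, and the difference of -0.72 ± 0.13 (adjusted p = 0.00907) was smaller than 2-fold. In lymphomas Klf2 ran from 7.06 in mPTCL 9 over a median of 10.40 to 11.69 in mPTCL 5. The lymphomas were all below the resting arrays, but mPTCL 5 lay above and mPTCL 6 within the activated range. Neither lymphoma difference passed the test, at -2.24 ± 0.83 against resting cells (adjusted p = 0.0770, 95% interval -4.02 to -0.45) and -1.52 ± 0.83 against activated cells (adjusted p = 0.207, -3.31 to 0.27). Klf2 was called against resting cells under 4 of 28 alternatives, among them without mPTCL 5 (adjusted p = 0.0474). Against activated cells it was called under 1 of 28, with array weights per group (0.0268). The SD over lymphomas was 1.57, against a median of 0.60 for all genes tested.

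Klf3, a Krüppel-like repressor, was 13.45, 13.62 and 13.43 in resting cells and 12.96, 12.32 and 12.71 in activated cells, again without overlap. The difference on activation was -0.84 ± 0.17 (adjusted p = 0.0116), less than 2-fold. Lymphoma values ran from 7.25 in mPTCL 7 over a median of 11.05 to 11.88 in mPTCL 8, all below both normal groups. Klf3 fell by 3.08 ± 0.80 against resting cells (8.43-fold, adjusted p = 0.0195). This call was lost without resting array 1 (adjusted p = 0.0757), 2 (0.0853) or 3 (0.0759). Against activated cells Klf3 differed by -2.24 ± 0.81 (adjusted p = 0.0649, 95% interval -3.98 to -0.50), and it was called under 7 of 28 alternatives, among them without mPTCL 4 (adjusted p = 0.0460) and without mPTCL 7 (0.0341).

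Foxo1, the forkhead factor that PI3K and AKT signalling inactivates, was 12.03, 11.90 and 11.76 in resting cells and 11.87, 11.52 and 11.94 in activated cells. These groups overlapped, with a difference of -0.12 ± 0.13 (adjusted p = 0.539). In lymphomas the lowest value was 9.06 in mPTCL 3, the median 10.14 and the highest 11.55 in mPTCL 5. All lymphomas were below the resting arrays, and 8 of 9 were below the activated arrays. Foxo1 fell by 1.53 ± 0.44 against resting cells (2.89-fold, adjusted p = 0.0298) and the difference from activated cells was -1.41 ± 0.44 (2.66-fold, adjusted p = 0.0383). The first call was lost without any 1 of the resting arrays, at adjusted p = 0.118, 0.109 and 0.0922 for arrays 1 to 3. The second was lost without any 1 of the activated arrays (0.134, 0.0964 and 0.143) and without mPTCL 6 (0.0567), mPTCL 7 (0.0549) or mPTCL 9 (0.0546). A measure of RNA says nothing about whether the Foxo1 protein was in the nucleus.

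Foxp1, the forkhead repressor that holds naive cells in quiescence, was 12.16, 12.29 and 11.84 in resting cells and 12.54, 12.26 and 12.57 in activated cells. The normal groups overlapped, and the difference was 0.36 ± 0.14 (adjusted p = 0.106). Lymphoma values ran from 9.72 in mPTCL 6 over a median of 11.23 to 11.94 in mPTCL 1. mPTCL 1 lay within the resting range, so Foxp1 was the only 1 of the 8 factors whose lymphoma and resting values overlapped. The difference from resting cells was -0.96 ± 0.38 (adjusted p = 0.0952, 95% interval -1.77 to -0.14). It was called under 2 of 28 alternatives, among them the mean of the probe sets (-1.52, adjusted p = 0.0133). Against activated cells Foxp1 fell by 1.32 ± 0.38 (2.49-fold, adjusted p = 0.0258), a call lost without any 1 of the activated arrays (adjusted p = 0.104, 0.0764 and 0.107).

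Bach2, the BTB and basic leucine zipper repressor, was the factor with the largest change on activation. It was 10.78, 11.25 and 11.06 in resting cells and 12.07, 11.85 and 11.84 in activated cells, without overlap. The difference of 0.89 ± 0.14 (adjusted p = 0.00448) fell short of 2-fold, and reached 1.00 without resting array 2, which made it a call. In lymphomas the lowest value was 7.14 in mPTCL 2, the median 8.41 and the highest 9.79 in mPTCL 9. All 9 lymphomas lay below every normal array. Bach2 fell by 2.74 ± 0.61 against resting cells (6.67-fold, adjusted p = 0.00881) and the difference from activated cells was -3.63 ± 0.60 (12.4-fold, adjusted p = 0.00194). The first call was lost without resting array 2 (adjusted p = 0.0541), and the second was made under all 28 alternatives.

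Satb1, the chromatin organiser, varied most among lymphomas. It was 12.37, 12.57 and 12.53 in resting cells and 13.14, 13.00 and 12.81 in activated cells, which did not overlap and differed by 0.49 ± 0.11 (adjusted p = 0.0168), less than 2-fold. Lymphoma values ran from the floor in mPTCL 9 over a median of 9.46 to 11.98 in mPTCL 3, all below both normal groups. Their SD was 2.20 and their range 6.98, against medians of 0.60 and 1.82 over all genes tested. The difference from resting cells was -3.20 ± 1.15 (adjusted p = 0.0696, 95% interval -5.68 to -0.72). It passed without mPTCL 3 (adjusted p = 0.0382), mPTCL 4 (0.0463) or mPTCL 9 (0.0456), and the signal of mPTCL 9 at the floor is only an upper bound. Against activated cells Satb1 fell by 3.69 ± 1.15 (at least 12.9-fold, adjusted p = 0.0378). That call was lost without any 1 of the activated arrays (adjusted p = 0.129, 0.123 and 0.114) and without mPTCL 2 (0.0572), mPTCL 6 (0.0529) or mPTCL 8 (0.0578).

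Ets1, the founding member of the ETS family, was 14.34, 14.53 and 14.47 in resting cells and 14.82, 14.69 and 14.68 in activated cells. The normal groups did not overlap, but the difference of 0.28 ± 0.11 did not pass (adjusted p = 0.0892). Lymphoma values ran from 11.47 in mPTCL 4 over a median of 13.10 to 13.60 in mPTCL 9. All were below both normal groups, and their SD of 0.65 was the smallest of the 8 factors. Ets1 fell by 1.51 ± 0.36 against resting cells (2.84-fold, adjusted p = 0.0123) and the difference from activated cells was -1.79 ± 0.36 (3.45-fold, adjusted p = 0.00471). Leaving out resting array 2 or 3 took the first adjusted p to 0.0651 and 0.0596, and without resting array 1 it lay just above 0.05, so each of the 3 ended this call, while the second call was made under all 28 alternatives.

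**Figure D2:**
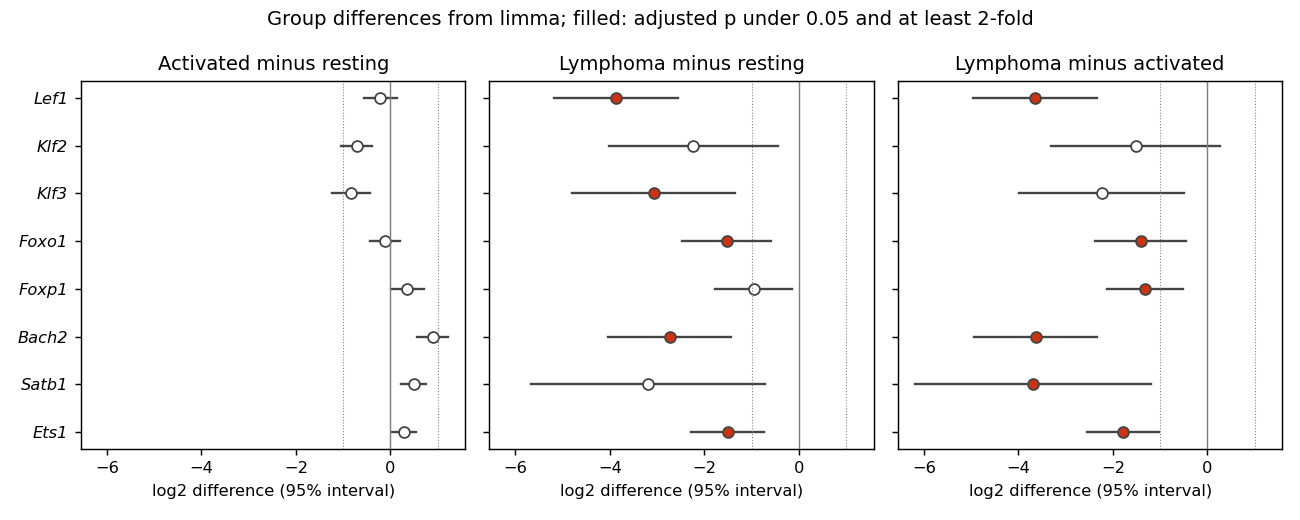
Difference in log2 signal (horizontal axis) of each factor in the 3 comparisons, with points for the limma estimate, bars for the 95% interval, filled points for calls and dotted lines at a 2-fold change. All points of both lymphoma panels lie left of 0, and only the interval of Klf2 against activated cells reaches across it.

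In order of group means, Lef1, Klf2, Klf3 and Foxo1 were highest in resting cells, and Foxp1, Bach2, Satb1 and Ets1 were highest in activated cells. The lymphomas came last for all 8. Resting and activated levels of Lef1, Foxo1 and Foxp1 were neighbours whose arrays overlapped.

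The lymphomas differed in which factor was lowest. Relative to the resting mean, the lowest factor was Lef1 in mPTCL 1 (-4.15), mPTCL 4 (-3.57) and mPTCL 5 (-5.90). Bach2 was lowest in mPTCL 2, mPTCL 3 and mPTCL 6, at -3.88, -3.88 and -3.84. Klf3 was lowest in mPTCL 7 (-6.25), and Satb1 in mPTCL 8 (-5.04) and mPTCL 9 (-7.49). The median over the 8 factors was nearest to resting cells in mPTCL 5, at -1.31, and farthest in mPTCL 9, at -3.02. All 8 factors lay below the resting range in each lymphoma except mPTCL 1, where 7 did. Below the whole normal range there were 8 in 6 lymphomas, 7 in mPTCL 1 and mPTCL 6 and 6 in mPTCL 5.

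The rank of a lymphoma differed from factor to factor. mPTCL 9 had the highest Bach2 and Ets1 of the 9 lymphomas and the lowest Klf2 and Satb1. mPTCL 5 had the highest Klf2 and Foxo1 and the lowest Lef1. mPTCL 3 had the highest Satb1 and the lowest Foxo1. Over the 28 pairs of factors, Pearson's r across the 9 arrays ran from -0.84 for Lef1 with Bach2 (Spearman's rho -0.62) to 0.56 for Lef1 with Satb1 (rho 0.42). These are descriptions over 9 points that share sort, depth and the other cells in each sample.

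**Figure D3:**
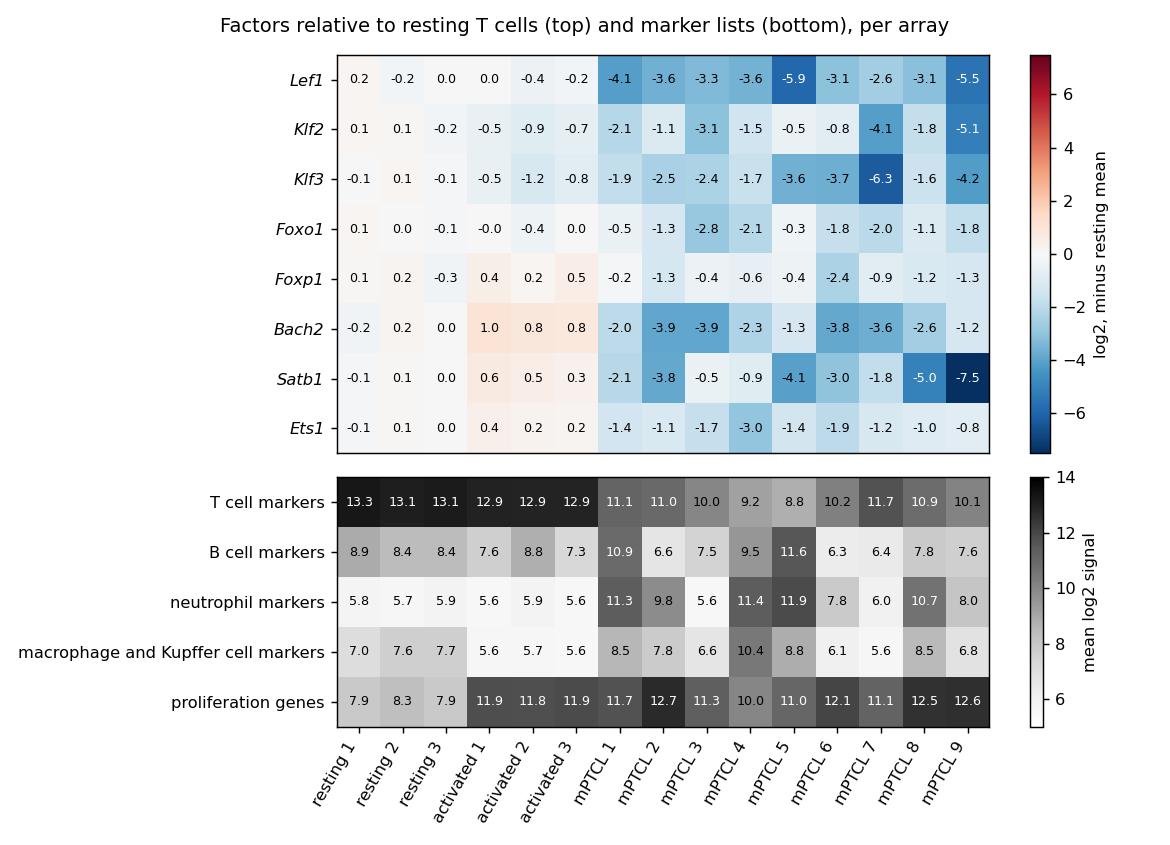
Upper panel, log2 signal of each factor minus its mean in resting cells for the 15 arrays, in columns; lower panel, mean log2 signal of 5 marker lists in the same arrays. Blue cells fill all 9 lymphoma columns of the upper panel, with the darkest cell in the row of Lef1, Bach2, Klf3 or Satb1 depending on the lymphoma.

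Markers of other cells varied among the lymphomas as well. The mean of 17 B cell markers was 8.38 to 8.87 in resting arrays, 7.26 to 8.77 in activated arrays and 6.32 to 11.56 in lymphomas, with the highest values in mPTCL 5 (11.56) and mPTCL 1 (10.93). Bach2, Foxp1, Foxo1 and Ets1 are also active in B cells. Across the 9 lymphomas the B cell mean had an r of 0.75 with Bach2, 0.705 with Foxp1 and 0.62 with Foxo1, against -0.63 with Lef1 and -0.18 with Ets1. Other lists gave values as large or larger, such as erythroid markers with Bach2 (0.81), Satb1 (-0.80) and Lef1 (-0.70), neutrophil markers with Foxo1 (0.767), and endothelial and stromal markers with Ets1 (-0.80). The part of any of these cells in the results was not tested. The 4 lymphomas with the lowest B cell means were mPTCL 6, 7, 2 and 3, at 6.32, 6.39, 6.65 and 7.48, and they had the lowest Bach2. mPTCL 9, with the highest Bach2, had a B cell mean of 7.625, below the resting range. Single markers differed within a lymphoma: in mPTCL 3 Pax5 lay at the floor and Pou2af1 at 11.97, above its resting range of 9.19 to 9.43. With all 9 lymphomas Bach2 differed by -2.74 against resting cells and by -3.63 against activated cells. Without mPTCL 1 and mPTCL 5 it differed by -3.06 (adjusted p = 0.00470) and -3.95 (adjusted p = 0.00138). In the same fits Foxo1 moved to -1.85 (adjusted p = 0.00426) and -1.73 (0.00583), Foxp1 against resting cells became a call at -1.15 (0.0457), and Satb1 against activated cells lost its call (0.0558).

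Neutrophil markers, 11 in number, averaged 5.59 to 5.90 in the normal arrays and 5.61 to 11.90 in lymphomas, and they exceeded the normal range by more than 2 log2 units in mPTCL 1, 2, 4, 5, 8 and 9. With only mPTCL 3, 6 and 7 left, Lef1 differed by -2.99 against resting cells (adjusted p = 0.00258), Bach2 by -3.79 (0.00217), Foxo1 by -2.20 (0.00983), Klf3 by -4.09 (0.0350) and Ets1 by -1.63 (0.00950). These 5 passed the call rule in that fit, and the part of neutrophils in the results was not tested. The T cell marker means of mPTCL 3, 6 and 7 were 9.99, 10.18 and 11.74, also below those of the normal arrays. Of the 3 left, mPTCL 3 and mPTCL 7 had neutrophil means of 5.61 and 6.02, while mPTCL 6, at 7.845, was above the normal range and close to the excluded mPTCL 9 at 8.03. Satb1 was nearer to resting cells there, at -1.79 (adjusted p = 0.0940). Foxp1 against activated cells lost its call (adjusted p = 0.0703). Proliferation genes averaged 7.86 to 8.29 in resting cells, 11.81 to 11.91 in activated cells and 10.01 to 12.72 in lymphomas.

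The probe sets of a factor had the same direction in the lymphomas, with some short of a call. The 8 factors had 34 probe sets, of which 33 were tested, among 22364 probe sets tested in all. The share of calls over all probe sets is not given here. Probe sets of 1 gene measure the same arrays, so their counts are not independent of each other. Against resting cells those called lower were 2 of 2 for Lef1, 6 of 7 for Klf3, 3 of 3 for Foxo1, 5 of 8 for Foxp1, 2 of 3 for Bach2, 4 of 5 for Satb1 and 4 of 4 for Ets1. The single Klf2 probe set was not called. For Satb1 the probe set used was the uncalled one, and the others ran from -4.68 to -2.76. All 5 Satb1 probe sets lay at the floor in mPTCL 9. For Foxp1 the probe set used had one of the smaller differences, with the 8 running from -2.99 to -0.69. Against activated cells the counts were 2 of 2, 5 of 7, 3 of 3, 8 of 8, 3 of 3, 5 of 5 and 4 of 4 in the same order. In activated against resting cells 1 probe set was called, a second Bach2 probe set that rose by 1.05, and the 2 Lef1 probe sets differed in sign, at -0.22 and 0.27.

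**Figure D4:**
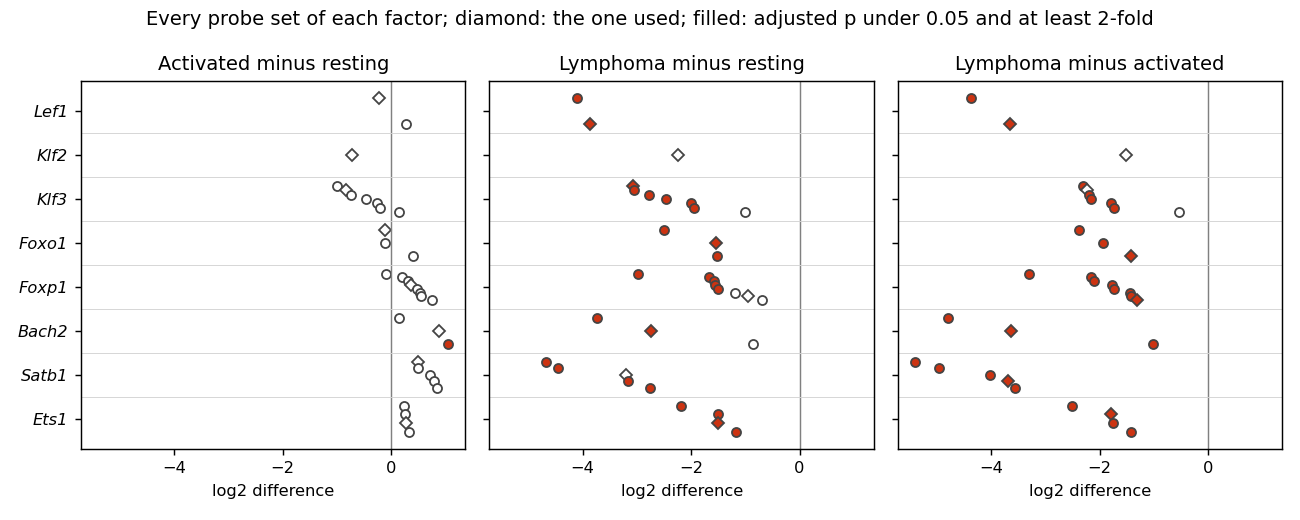
Difference in log2 signal (horizontal axis) of each tested probe set of the 8 factors in the 3 comparisons, with a diamond for the probe set used and filled symbols for calls. In both lymphoma panels all 33 symbols lie left of 0, from -5.40 to -0.54.

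Genes whose pattern over the 9 lymphomas was most like that of a factor were taken from 4775 genes with a range of at least 2 log2 units. For Foxo1 these were S1pr1 (r = 0.955, rho = 0.933) and Ehd1 (r = 0.921). For Klf2 they were Vim (0.942) and Id3 (0.922), for Klf3 Arhgap39 (0.921) and Ms4a4b (0.903), and for Lef1 Slc9a3r1 (0.933) and Six5 (0.933). For Bach2 they were Casp1 (0.966) and Mreg (0.963), for Satb1 Rnf144a (0.964) and Kbtbd11 (0.958), for Foxp1 Cd37 (0.935) and Lyl1 (0.930), and for Ets1 Bin1 (0.929) and Cd3d (0.926). They are the highest r among 4775 genes over 9 points and are given as a description.

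Genes of homing and survival in naive T cells numbered 18 among those tested. Here and in the lists below, genes counted as falling or rising are those that passed the call rule, so a gene not counted can still differ. Of the 18, 12 fell and 0 rose against resting cells (median -3.30), and 11 fell against activated cells (median -2.85), beside 6.84% and 8.28% of all genes. Ccr7, the receptor for lymph node entry, was 13.40, 13.30 and 13.46 in resting cells, 13.48, 13.16 and 13.16 in activated cells and at the floor in 4 of 9 lymphomas, with a highest value of 10.40 in mPTCL 5. It fell by 6.36 ± 1.09 against resting cells (adjusted p = 0.00192) and the difference from activated cells was -6.24 ± 1.09 (0.00248), at least 82.2-fold and 75.6-fold lower. S1pr1, the receptor for lymph node exit, was 12.53 to 12.64 in resting cells and 12.02 to 12.31 in activated cells, and ran from 6.16 to 10.36 in lymphomas. It fell in both comparisons, with differences of -4.35 ± 0.71 against resting cells (adjusted p = 0.00141) and -3.98 ± 0.71 against activated cells (0.00283). Dapl1, a gene known from naive T cells, was at the floor in all 9 lymphomas against 10.78 to 11.02 in resting cells, at least 58.6-fold lower.

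Il7r, the receptor chain for the survival cytokine IL-7, separated the lymphomas among themselves. It was 13.71 to 13.87 in resting cells, 13.06 to 13.29 in activated cells and from 5.01 in mPTCL 7 to 13.42 in mPTCL 3. It fell by 4.78 ± 1.47 against resting cells (adjusted p = 0.0399), a call lost under 11 of 28 alternatives, among them leaving out any 1 resting array or mPTCL 2, 6, 8 or 9. Against activated cells the difference of -4.17 ± 1.47 did not pass (adjusted p = 0.0607). Bcl2, the survival protein downstream of IL-7, gave no call, at -1.31 ± 1.34 and -0.77 ± 1.34 (adjusted p = 0.526 and 0.712), and its lymphoma values lay on both sides of the normal ones, from 5.71 in mPTCL 2 to 13.84 in mPTCL 7. On activation 5 of the 18 genes fell and 0 rose, beside 4.23% and 8.45% of all genes, led by Ramp1 (-2.53 ± 0.25, adjusted p = 0.000955), Cd55 (-2.11 ± 0.19) and Atp1b1 (-1.88 ± 0.13), while Ccr7 was at -0.12 ± 0.11 (adjusted p = 0.460).

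Regulators of quiescence, which restrain growth and division, included 22 tested genes. On activation 0 of them were called, beside 12.7% of all genes. In lymphomas 7 fell against resting cells (median -0.95), beside 6.84% of all genes, and 8 against activated cells (median -1.01), beside 8.28%, with 0 rising in either. Slfn1, a Schlafen gene of resting T cells, fell in both lymphoma comparisons, with differences of -4.71 ± 0.88 (adjusted p = 0.00347) and -4.46 ± 0.89 (0.00478), and lay at the floor in mPTCL 9. Sesn3, a sestrin and known Foxo1 target that dampens mTOR, was 12.20 to 12.47 in resting cells and 12.40 to 12.59 in activated cells. In lymphomas it ran from 7.94 to 11.01, and it fell in both, with differences of -2.84 ± 0.56 (adjusted p = 0.00451) and -3.06 ± 0.56 (0.00309). Rbl2, a pocket protein that represses E2F genes, fell by 1.64 ± 0.41 against activated cells (adjusted p = 0.0145), a call lost without any 1 of the activated arrays.

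**Figure D5:**
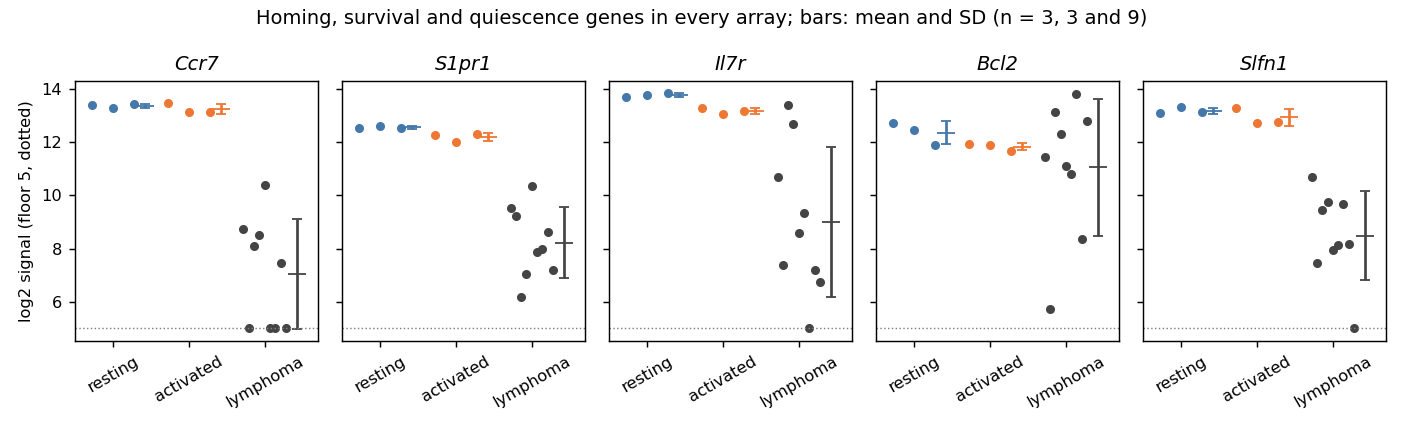
Log2 signal (vertical axis, floor of 5 dotted) of the naive T cell genes Ccr7, S1pr1, Il7r and Bcl2 and the quiescence gene Slfn1 in 3 resting, 3 activated and 9 lymphoma arrays, with bars for mean and SD. Ccr7, S1pr1 and Slfn1 lie below both normal groups in all 9 lymphomas. Il7r lies below the resting arrays in all 9 and reaches the activated level only in mPTCL 3, whereas Bcl2 reaches the normal levels in some.

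In the PI3K and AKT branch that acts on Foxo1, 0 of 15 genes tested were called in lymphomas against resting cells (median -0.22), where 6.84% of all genes were lower and 7.03% higher. Against activated cells 2 fell, beside 8.28% of all genes, the catalytic subunits Pik3cd (-1.51 ± 0.34, adjusted p = 0.00838) and Pik3ca (2.14-fold lower, adjusted p = 0.0484), the latter lost without any 1 of the activated arrays or mPTCL 1, 2, 3, 6, 7 or 9. On activation 2 of the 15 were called, beside 12.7% of all genes. Phlpp1, a phosphatase that acts on AKT, rose by 2.41 ± 0.22 (adjusted p = 0.000808), and Sgk1, a kinase that also phosphorylates FOXO proteins, fell by 1.98 ± 0.25 (adjusted p = 0.00230).

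Among 18 tested partners of Lef1 and Tcf7 in β-catenin and TLE complexes, 0 were called on activation (12.7% of all genes). In lymphomas 5 fell against resting cells (6.84%) and 3 against activated cells (8.28%), and 0 rose. Tle4, a Groucho-type corepressor, fell by 1.72 ± 0.42 against resting cells (adjusted p = 0.0146), a call lost without any 1 of the resting arrays. Tle5, a short TLE protein, fell by 1.41 ± 0.24 (adjusted p = 0.00182), and all 9 lymphomas, at 9.83 to 10.87, were below the resting range of 11.57 to 12.03. Bcl9, an adaptor of β-catenin, fell by 1.90 ± 0.33 against activated cells (adjusted p = 0.00237), with 3 of 9 lymphomas at the floor.

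Of 26 tested relatives of the 8 factors, such as other KLF, FOX and ETS factors, 1 fell and 1 rose against resting cells (median -0.23), beside 6.84% and 7.03% of all genes. Against activated cells 3 fell and 1 rose (median -0.52), beside 8.28% and 7.04% and an all-gene median of -0.08. Klf10 rose by 1.62 ± 0.35 against resting cells (adjusted p = 0.00826), a call lost without resting array 2. Klf4, another KLF factor, rose by 3.91 against activated cells (15.0-fold, adjusted p = 0.0246). This call was lost without any 1 of the activated arrays or without the 6 lymphomas high in neutrophil markers. In mPTCL 3, 6 and 7, which remained in the latter fit, Klf4 was 11.36, 12.05 and 7.82, and in the excluded mPTCL 9 it was 6.90. The part of neutrophils in Klf4 was not tested. The ETS factor Elf4 fell against activated cells (2.83-fold lower, adjusted p = 0.00597).

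Of 15 tested factors of the effector programme, 10 rose and 0 fell in activated cells (median 1.33), beside 8.45% and 4.23% of all genes, with Bhlhe40 up by 4.19 ± 0.55 (adjusted p = 0.00256) and Nfil3 by 2.91 ± 0.33 (0.00158). In lymphomas against resting cells 3 rose and 0 fell (median 0.75), beside 7.03% and 6.84% of all genes, and against activated cells 1 rose and 2 fell (median -0.72), beside 7.04% and 8.28%. Bhlhe40, a helix-loop-helix factor of activated T cells, was 7.23, 6.54 and 5 in resting cells and from 8.96 to 12.04 in lymphomas, and rose by 4.33 ± 0.57 (adjusted p = 0.000395). Id2, an inhibitor of E proteins, rose by 1.75 ± 0.39 against activated cells (adjusted p = 0.00871), a call lost without activated array 1 or 3. Hif1a, the hypoxia factor, fell by 1.83 ± 0.32 against activated cells (adjusted p = 0.00248), and all 9 lymphomas, at 11.36 to 13.41, were below the activated range of 14.18 to 14.34.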

How the data were processed

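RNA of 15 samples was measured on 1 oligonucleotide array each. The deposited values are intensities on a linear scale, computed by the authors with MAS5. Per the submitters' processing notes, the software was Affymetrix Expression Console, and version 1.1 is named for the lymphoma arrays only. Each array has a 2% trimmed mean of 500 in the file. Of the probe sets, 34958 carried 1 gene symbol and were used apart from controls, 932 several and 9211 none. Symbols of 34754 were updated by gene identifier. Values under 32 were set to 32 before log2, and a gene was tested if 3 or more arrays reached 100.

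Groups came from the labels. Each comparison was fitted with limma 3.58.1 in R 4.3.3 (lmFit, eBayes with trend) on its own arrays, adjusted by Benjamini-Hochberg over 11902 genes, and called at an adjusted p under 0.05 and at least 2-fold. The fits were tested on simulated data. The members and lists were chosen with earlier results of these data known. Named genes were, per list and comparison, at most 3 called members a direction with the largest changes, plus Ccr7, S1pr1, Il7r and Bcl2. The deleted p53 gene is not analysed here. Promoter windows came from RefSeq, where 7 of the 8 members matched. Alternatives changed the floor (16, 64, or 16 added instead), the filter (none, 200), the scaling (quantile, median), the choice of probe sets, the model (joint fit, flat prior variance, weights, replicate block), the fold requirement and the arrays included. The number of arrays limits the precision.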

Additional observations from a re-analysis of the deposited data

How the results depend on the processing

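The number of factors called stayed within 1.5 times under 25 of 28 alternatives in each lymphoma comparison. On activation it stayed at 0 under 18 of 20, it was 4 at the adjusted p alone, and leaving out 1 array gave 0 to 1. Leaving out 1 array gave 1 to 6 calls against resting cells and 3 to 7 against activated cells. Reversed values, none of them calls, were Lef1 on activation with the mean of its probe sets (0.026), Foxo1 on activation without activated array 2 (0.0082, with a range of -0.20 to 0.0082 on leaving out 1 array), and Bcl2 without the lymphomas high in neutrophil markers (0.23 against resting and 0.77 against activated cells). Quantile normalisation moved the median of all genes between lymphomas and activated cells from -0.08 to 0.06, and 7 factors were then called lower. Labels number the replicates, but same-numbered resting and activated arrays did not deviate together (r = -0.01, 0.05 and -0.01). With the replicate number as a block, 0 factors were called on activation, 5 against resting and 4 against activated cells. The 5 included Klf2 and not Foxo1. No label ties a lymphoma to the normal array of its number, and numbers above 3 occur only among lymphomas. The lymphoma differences in the block fits therefore rest on mPTCL 1, 2 and 3 alone, with Lef1 at -3.69 against resting cells. Few normal arrays and values near the floor limit the precision.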
